A study of Mus musculus with 2 samples.

Results

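Procr, Nppb, Pthlh, Plaur, Plau, Fermt1, Fscn1, Snai2 and F3 are 9 genes linked, in skin and other epithelia, with cells that migrate or border a wound, and they are described here in the basal cells of the mouse corneal epithelium. They were taken by gene symbol, and all 9 were found among the 27998 features of both deposited count tables. They had been picked with earlier results of these data in view, as genes of high level in corneal basal cells, so their excess in those cells is a description and not a finding. The libraries were a Beclin1 +/- cornea and limbus preparation from 1 healthy C57BL/6 female of 28 days and a WT preparation from 1 healthy littermate female of the same strain and age. Lens, retina, iris and trabecular tissue had been taken out, most conjunctiva had been dissected off, and cells were freed with collagenase and then trypsin before droplet capture on the 10x Genomics system. The labels describe no wound in either animal, so "wound-edge" names only the background of these genes. With 1 library per genotype, genotype, animal and library preparation cannot be told apart, no difference between them has a replicate check, and no p-value is given.

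A basal cell at the margin of an epithelial wound leaves its neighbours, crawls over a provisional matrix and later returns to the resting layer. Urokinase (Plau), bound to its receptor (Plaur), turns plasminogen into plasmin at the cell surface, kindlin-1 (Fermt1) switches on integrins, fascin (Fscn1) bundles actin in cell protrusions, and Slug (Snai2) is a transcription factor that loosens epithelial contacts. Tissue factor (F3) starts blood coagulation, the endothelial protein C receptor (Procr) acts in the anticoagulant protein C pathway, and Nppb and Pthlh encode the secreted hormones brain natriuretic peptide and parathyroid hormone-related protein.

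The targeted gene, Becn1, was counted at 42.9 CPM (UMI counts scaled to a common total, from 2988 UMIs) over all kept cells of the library labelled Beclin1 +/-, against 42.6 CPM (from 2280 UMIs) in WT. The log2 ratio of Beclin1 +/- over WT was 0.01, with a 95% counting interval of -0.07 to 0.09. Since the altered stretch of the gene is not stated and a 3′ count outside that stretch checks nothing, these counts do not check the labels. The Beclin1 +/- library had 5155 barcodes with a median of 11571 UMIs, and WT had 2513 with a median of 16967 UMIs. The lowest barcode held 5430 UMIs in Beclin1 +/- and 8089 in WT, so the shallower part of the Beclin1 +/- library has no counterpart in WT. The libraries shared 15 barcode sequences.

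Cells were placed by the CPM of marker genes in each cell, so each class is a range of keratin or marker level and not a cell type settled by clustering. Corneal basal cells, with Krt14 of at least 2000 CPM and Krt12 of at least 8000 CPM, numbered 1441 in Beclin1 +/- and 809 in WT. Limbal cells, with Gpha2 of at least 500 CPM and Krt14 of at least 2000 CPM, numbered 262 in Beclin1 +/- and 185 in WT without corneal Krt12. A further 102 Beclin1 +/- cells and 45 WT cells met the limbal and the corneal basal limits at once and were kept apart. Wing cells, the layer above the basal cells, were taken as Krt12 of at least 20000 CPM with Krt14 under 2000 CPM, and numbered 977 in Beclin1 +/- and 520 in WT. Stromal cells, with Dcn of at least 5000 CPM, numbered 1322 in Beclin1 +/- and 551 in WT. Just inside the Krt14 limit the nearest corneal basal cells had 2003 CPM in Beclin1 +/- and 2016 CPM in WT, and just outside it cells had 1996 CPM and 1998 CPM in those libraries. Within 500 CPM of that limit lay 151 basal cells and 167 cells outside in Beclin1 +/-, and 64 basal cells and 70 cells outside in WT.

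Marker sums describe the corneal basal cells but do not check their name, since Krt12 and Krt14 chose the class. The summed corneal epithelial markers, Krt12 among them, stood at 37800 CPM in Beclin1 +/- and 41260 CPM in WT. Wing cells had more of these, 51870 CPM in Beclin1 +/- and 53370 CPM in WT. The basal epithelial markers, Krt14 among them, summed to 9855 CPM in Beclin1 +/- and 10870 CPM in WT corneal basal cells. Limbal cells had 11220 CPM and 11420 CPM of the basal markers in those libraries, and wing cells 7595 CPM and 8624 CPM. The limbal basal markers summed to 1380 CPM in Beclin1 +/- corneal basal cells and 1243 CPM in WT ones, against 9463 CPM and 9764 CPM in the limbal cells of those libraries. Stromal markers summed to 242.3 CPM in Beclin1 +/- corneal basal cells and 188.0 CPM in WT, and mast cell markers to 26.8 CPM and 16.2 CPM. Of 6 immune markers none reached 20 CPM in either library, with a summed level of 12.1 CPM in Beclin1 +/- and 2.64 CPM in WT corneal basal cells. The part of these traces in the results was not tested, and leaving out cells with 2 or more mast cell UMIs moved no count given here past its limit of 1.5 times.

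Promoter windows of 300 bases, from 250 before to 50 after the RefSeq gene start on GRCm38.p6, were at hand for 7 of the 9 genes. Those of the 3 membrane proteins F3, Procr and Plaur are shown because each holds the AP-1 motif TGANTCA, and those of Nppb and Pthlh because these hormone genes had the steepest difference between corneal basal and limbal cells. Capitals mark the motifs searched on both strands. TGANTCA stood for AP-1 and reads the same on either strand. GGAATG stood for TEAD, with CATTCC as its reverse complement. CAGGTG stood for the E-box, with CACCTG on the other strand, and TATAAA for the TATA box, with TTTATA on the other strand. No pair of matches overlapped in these windows.
The windows, read 5′ to 3′ on the gene's strand, are chr3:121723287-121723586 (F3, plus strand), chr2:155750967-155751266 (Procr, plus), chr7:24462233-24462532 (Plaur, plus), chr4:147985650-147985949 (Nppb, plus) and chr6:147263964-147264263 (Pthlh, minus).
F3: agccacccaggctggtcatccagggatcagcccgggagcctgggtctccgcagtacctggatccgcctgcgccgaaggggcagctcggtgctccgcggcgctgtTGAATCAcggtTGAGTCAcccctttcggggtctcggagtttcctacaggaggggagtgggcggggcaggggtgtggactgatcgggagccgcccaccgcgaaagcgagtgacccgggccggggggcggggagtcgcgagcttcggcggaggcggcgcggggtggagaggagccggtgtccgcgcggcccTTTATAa
Procr: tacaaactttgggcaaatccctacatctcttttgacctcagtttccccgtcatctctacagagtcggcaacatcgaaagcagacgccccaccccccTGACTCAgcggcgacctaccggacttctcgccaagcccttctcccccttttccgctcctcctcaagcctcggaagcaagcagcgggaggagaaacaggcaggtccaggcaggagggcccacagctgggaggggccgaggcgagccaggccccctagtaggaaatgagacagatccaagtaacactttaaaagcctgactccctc
Plaur: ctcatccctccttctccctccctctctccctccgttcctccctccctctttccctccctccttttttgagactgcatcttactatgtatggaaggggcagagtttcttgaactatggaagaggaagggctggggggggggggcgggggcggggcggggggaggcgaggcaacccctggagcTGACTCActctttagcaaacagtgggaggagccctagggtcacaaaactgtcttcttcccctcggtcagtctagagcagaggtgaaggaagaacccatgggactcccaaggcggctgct
Nppb: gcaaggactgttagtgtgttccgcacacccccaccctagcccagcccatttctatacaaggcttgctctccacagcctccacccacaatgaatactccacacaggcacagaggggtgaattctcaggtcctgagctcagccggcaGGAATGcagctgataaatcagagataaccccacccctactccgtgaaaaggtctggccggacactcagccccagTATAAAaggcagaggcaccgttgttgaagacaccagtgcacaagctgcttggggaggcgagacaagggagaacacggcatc
Pthlh: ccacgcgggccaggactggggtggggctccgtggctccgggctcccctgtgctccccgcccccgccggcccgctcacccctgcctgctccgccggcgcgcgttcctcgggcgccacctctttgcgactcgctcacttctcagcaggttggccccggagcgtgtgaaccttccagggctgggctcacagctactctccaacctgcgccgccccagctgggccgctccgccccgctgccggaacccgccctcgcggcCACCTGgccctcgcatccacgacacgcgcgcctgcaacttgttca
The F3 window holds TGAATCA at position -146 and TGAGTCA at -135 from the start, the Procr window TGACTCA at -154 and the Plaur window TGACTCA at -69. The AP-1 letters occur in 7.81% of all 32851 such windows. Nppb holds GGAATG at -105, as do 14.7% of windows on either strand, and TATAAA at -31, as do 13.6%. The Pthlh window has CACCTG at +6, found in 20.2% of windows, and no AP-1, TEAD or TATA letters. A match is a description of letters in the window, and none of these data measured binding.

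Tissue factor and the protein C receptor were both well covered in corneal basal cells but ordered differently against the limbus. F3 (chr3:121723537-121735048 on GRCm38, the build of all positions here, plus strand) stood at 391.8 CPM in Beclin1 +/- corneal basal cells and 485.2 CPM in WT ones, from 8044 and 7896 UMIs. Limbal cells had more, 640.4 CPM in Beclin1 +/- and 919.0 CPM in WT, and wing cells less, 189.2 CPM in Beclin1 +/- and 214.6 CPM in WT. The log2 ratio of corneal basal over limbal cells was -0.71 (95% counting interval -0.78 to -0.64) in Beclin1 +/- and -0.92 (-0.98 to -0.86) in WT, so F3 was lower in corneal basal than in limbal cells of both libraries. Stromal cells also held F3, at 199.3 CPM in Beclin1 +/- and 305.0 CPM in WT. Procr (chr2:155751117-155755471, plus strand) had 140.6 CPM in Beclin1 +/- corneal basal cells and 174.6 CPM in WT ones, against 104.8 CPM and 98.9 CPM in the limbal cells of those libraries. In the cells with both limbal and corneal markers Procr was at 156.9 CPM in Beclin1 +/- and 227.8 CPM in WT, the highest of the 5 classes in each library, though in Beclin1 +/- the interval of its ratio to corneal basal cells reached 0. In WT 1 of those 45 cells held 31 of the 171 UMIs. After thinning 37.8% of them had a Procr UMI, against 48.2% of WT corneal basal cells. Wing cells had 25.4 CPM of Procr in Beclin1 +/- and 24.3 CPM in WT, so corneal basal cells exceeded them 5.54-fold and 7.20-fold.

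Most of the other genes of these coagulation pathways were scarce in corneal basal cells. Of the list for coagulation initiation and the protein C pathway, 13 genes with F3 and Procr, 3 reached 20 CPM in each library. The third was F2rl1, a protease-activated receptor, at 58.1 CPM in Beclin1 +/- and 49.6 CPM in WT. Of all 27998 features, 4137 averaged 20 CPM over the corneal basal cells of both libraries, so low levels are not particular to this list. Thbd (thrombomodulin), which presents thrombin to protein C, had 0.633 CPM in Beclin1 +/- and 0.430 CPM in WT, and Tfpi, the inhibitor of tissue factor, had 0.536 CPM and 0.123 CPM. F7, the plasma protease that tissue factor binds, had 0 UMIs in both, where 3 UMIs would be 0.146 CPM in Beclin1 +/- and 0.184 CPM in WT. In stromal cells Thbd stood at 19.9 CPM in Beclin1 +/- and 23.7 CPM in WT, and Tfpi at 43.6 CPM and 41.4 CPM. The thrombin receptor gene F2r had 4.04 CPM in Beclin1 +/- and 4.85 CPM in WT corneal basal cells, and the protein C cofactor gene Pros1 had 0.828 CPM and 0.922 CPM. Tfpi and F7 were chosen for their relation to F3, after values had been seen.

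The urokinase receptor, like F3, was higher in limbal than in corneal basal cells. Plaur (chr7:24462484-24475968, plus strand) had 107.9 CPM in Beclin1 +/- and 129.9 CPM in WT corneal basal cells, against 190.0 CPM and 238.2 CPM in limbal cells. Its log2 ratio of corneal basal over limbal cells was -0.82 (-0.95 to -0.68) in Beclin1 +/- and -0.88 (-0.99 to -0.76) in WT. Wing cells had 44.5 CPM in Beclin1 +/- and 49.7 CPM in WT, and stromal cells 11.9 CPM and 17.3 CPM, whereas F3 was higher in stromal than in wing cells. Its ligand Plau (chr14:20836660-20843385, plus strand) was sparse, with 160 UMIs in Beclin1 +/- and 129 UMIs in WT corneal basal cells, or 7.79 CPM and 7.93 CPM. Limbal cells had 7.35 CPM of Plau in Beclin1 +/- and 8.46 CPM in WT, and the counting interval of the ratio covered 0 in both libraries. Wing cells had 0.825 CPM of Plau in Beclin1 +/- and 1.26 CPM in WT, and stromal cells 2 UMIs in each library. Plau thus separated both basal layers from the wing and stromal cells without separating cornea from limbus at this depth.

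Other genes of plasminogen activation were mostly shared with other layers. The list holds 11 genes with Plaur and Plau, of which Plg, the plasminogen gene itself, had 0 UMIs in corneal basal cells of both libraries. S100a10 and Anxa2, the subunits of a plasminogen-binding complex, stood at 4520 CPM and 2490 CPM in Beclin1 +/- corneal basal cells and 4007 CPM and 2377 CPM in WT ones. Serpinb5 (maspin), a member of the serpin family, had 563.9 CPM in Beclin1 +/- and 595.0 CPM in WT corneal basal cells. Among its 9 genes other than Plaur and Plau, 6 averaged 20 CPM or more against limbal cells, and of these 0 in Beclin1 +/- and 1 in WT were 2-fold higher in corneal basal cells, with 1 in each library 2-fold lower. Over all genes 3.72% in Beclin1 +/- and 3.75% in WT were higher, and 5.36% and 6.06% lower.

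Nppb was the member most narrowly held by corneal basal cells. Nppb (chr4:147985788-147987205, plus strand) had 62.7 CPM in Beclin1 +/- and 87.9 CPM in WT corneal basal cells, against 6.68 CPM and 9.63 CPM in limbal cells, a ratio of 9.17-fold and 8.99-fold. Wing cells had 11.3 CPM in Beclin1 +/- and 12.4 CPM in WT, and stromal cells 1.41 CPM and 1.49 CPM. Of all Nppb UMIs, 69.9% in Beclin1 +/- and 75.1% in WT lay in the corneal basal class, which held 29.5% and 30.4% of all UMIs. Cells with both limbal and corneal markers had 42.9 CPM in Beclin1 +/- and 70.6 CPM in WT, closer to the corneal basal than to the limbal level. In WT 1 of 45 such cells held 24 of the 53 UMIs, and 6 had a thinned Nppb UMI, so the closeness there leans on few cells. The overlapping limits also allow the cells of both limbal and corneal markers to be counted in both classes. The log2 ratio of Nppb in corneal basal over limbal cells was then 1.68 in Beclin1 +/- and 2.07 in WT. It was 3.20 and 3.17 with them kept apart. The receptor gene Npr1 had 0.0487 CPM in Beclin1 +/- and 0.123 CPM in WT corneal basal cells, and the clearance receptor gene Npr3 had 8.72 CPM and 12.1 CPM. Npr1 was chosen for its relation to Nppb, after values had been seen.

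Pthlh had a high level concentrated in part of the cells. Pthlh (chr6:147252101-147264183, minus strand) stood at 357.3 CPM in Beclin1 +/- and 439.1 CPM in WT corneal basal cells, against 86.8 CPM and 44.4 CPM in limbal cells. Its log2 ratio of corneal basal over limbal cells was 2.04 in Beclin1 +/- and 3.30 in WT, and 1.86 and 2.68 with the cells of both limbal and corneal markers counted in both classes. Wing cells kept 174.4 CPM in Beclin1 +/- and 151.8 CPM in WT, so the corneal basal excess over wing cells was 2.05-fold and 2.89-fold. After each cell was thinned to 5000 UMIs, 47.6% of Beclin1 +/- and 52.2% of WT corneal basal cells had a Pthlh UMI, where UMIs spread evenly over cells would have reached 86.7% and 89.03%. The top 10% of cells held 53.8% of its thinned UMIs in Beclin1 +/- and 53.6% in WT, and the highest cell before thinning had 70 UMIs in Beclin1 +/- and 137 UMIs in WT. The receptor gene Pth1r was low in corneal basal cells, 4.68 CPM in Beclin1 +/- and 3.50 CPM in WT, against 59.4 CPM and 53.8 CPM in stromal cells. Furin, a protease that trims prohormones, had 53.8 CPM in Beclin1 +/- and 53.4 CPM in WT corneal basal cells. It was the only one of the 10 other genes of the natriuretic peptide and PTHrP list to average 20 CPM over corneal basal and limbal cells in either library. Of all 27998 features, 4199 in Beclin1 +/- and 4289 in WT reached that average.

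Kindlin-1 was shared by corneal basal and limbal cells. Fermt1 (chr2:132904389-132945906, minus strand) had 388.6 CPM in Beclin1 +/- and 401.4 CPM in WT corneal basal cells, against 340.6 CPM and 303.5 CPM in limbal cells, a ratio of 1.14-fold and 1.32-fold. Wing cells had 83.3 CPM in Beclin1 +/- and 95.01 CPM in WT, and stromal cells 8.34 CPM and 7.45 CPM. Its paralog Fermt2 had 1.51 CPM in Beclin1 +/- and 1.17 CPM in WT corneal basal cells, against 268.4 CPM and 225.7 CPM in stromal cells. Fermt2 was chosen as a paralog of Fermt1, after values had been seen. Among the integrin genes of the same list, Itga6 and Itgb4, which pair in hemidesmosomes, stood at 380.6 CPM and 133.4 CPM in Beclin1 +/- corneal basal cells and at 411.1 CPM and 139.8 CPM in WT ones. Of the adhesion list other than Fermt1, 4 of 12 genes in Beclin1 +/- and 4 of 13 in WT that averaged 20 CPM were 2-fold higher in corneal basal than wing cells, and 1 was 2-fold lower in each. Over all genes 5.76% in Beclin1 +/- and 5.29% in WT were higher, and 8.5% and 8.79% lower.

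Fascin was the member most shared with the stroma. Fscn1 (chr5:142960343-142973185, plus strand) had 75.9 CPM in Beclin1 +/- and 92.7 CPM in WT corneal basal cells, 48.7 CPM and 58.8 CPM in stromal cells, and 12.4 CPM and 14.9 CPM in wing cells. Limbal cells had 58.8 CPM in Beclin1 +/- and 58.1 CPM in WT, between the corneal basal and wing levels. Arpc2, of the actin-branching complex, had 834.8 CPM in Beclin1 +/- and 796.8 CPM in WT corneal basal cells. Of the 15 other genes of the list for actin bundles and lamellipodia, 2 of the 9 that averaged 20 CPM in Beclin1 +/- and 1 of 9 in WT were 2-fold higher in corneal basal than wing cells, where 5.76% and 5.29% of all genes were. In each library 1 of the 9 was 2-fold lower, where 8.5% of all genes in Beclin1 +/- and 8.79% in WT were.

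Snai2 was present without its relative Snai1. Snai2 (chr16:14705852-14709385, plus strand) had 66.1 CPM in Beclin1 +/- and 82.0 CPM in WT corneal basal cells, against 36.1 CPM and 29.2 CPM in limbal cells and 16.6 CPM and 17.2 CPM in wing cells. Snai1 had 0.487 CPM in Beclin1 +/- and 0.123 CPM in WT corneal basal cells, against 62.3 CPM and 71.8 CPM in stromal cells. Snai1 was chosen as a paralog of Snai2, after values had been seen. The epithelial cadherin gene Cdh1, a target that Snail factors repress, stood at 96.3 CPM in Beclin1 +/- and 90.5 CPM in WT corneal basal cells. Of the 11 other genes of this list, 3 averaged 20 CPM over corneal basal and wing cells of each library and 0 of those were 2-fold higher in corneal basal cells. Vim, the mesenchymal filament gene, had 10.2 CPM in Beclin1 +/- and 6.39 CPM in WT corneal basal cells, against 1808 CPM and 2131 CPM in stromal cells.

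**Figure D1:**
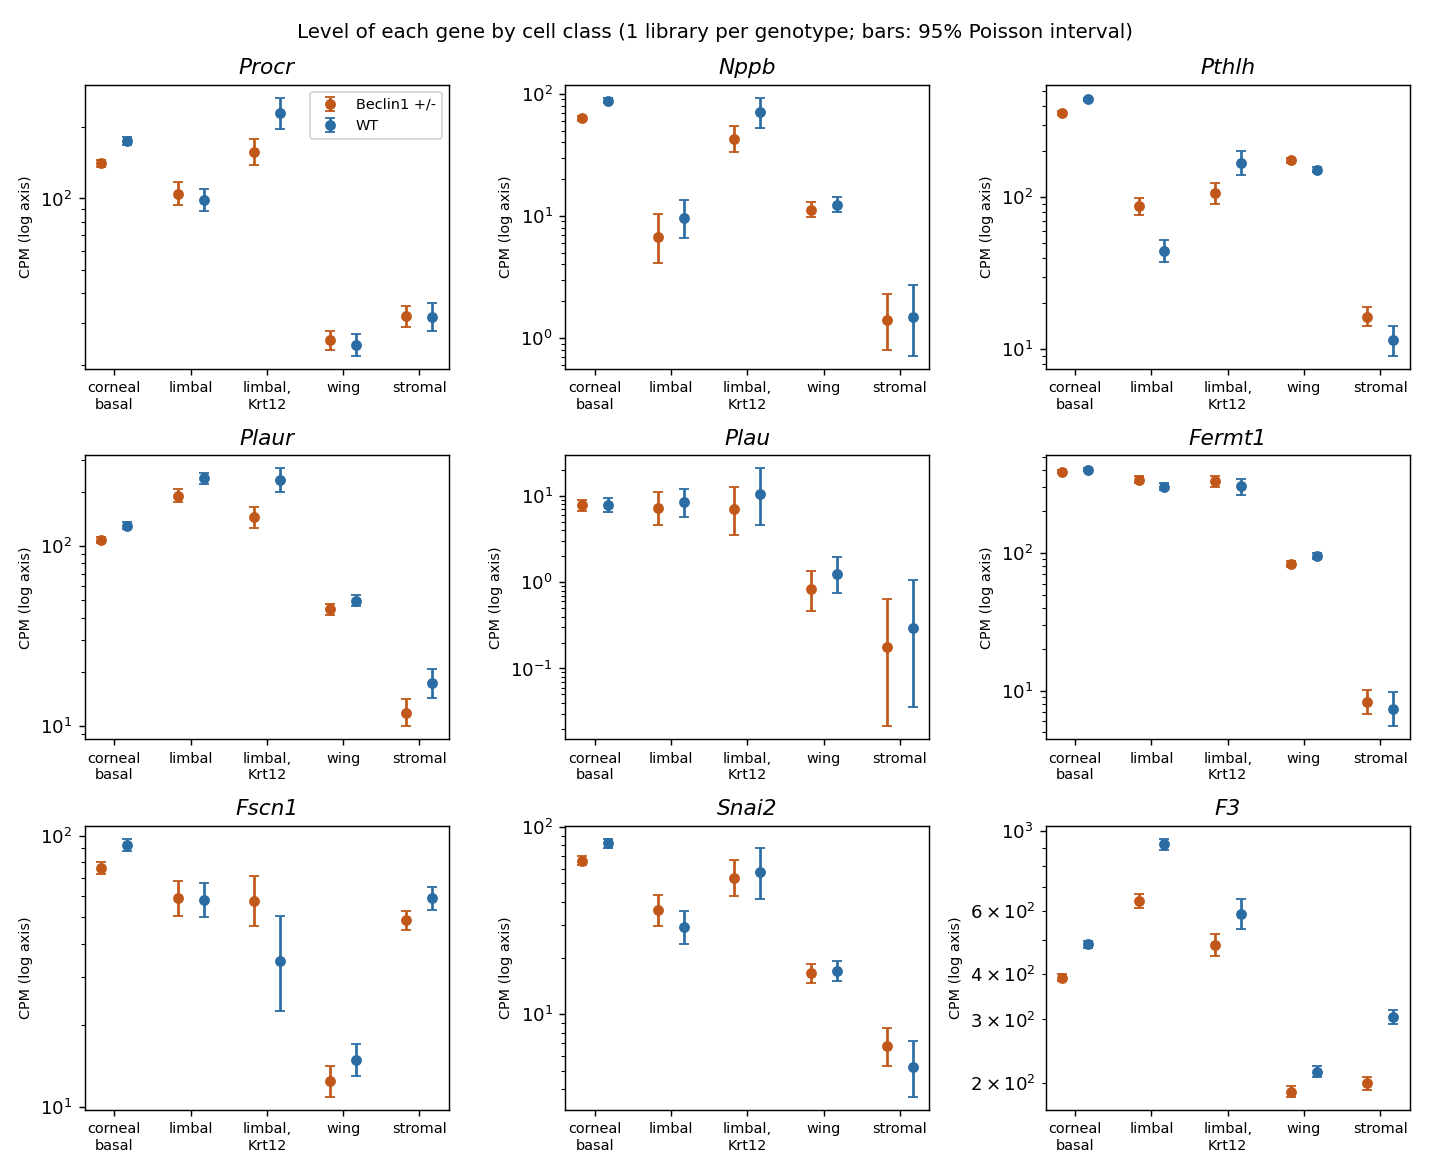
Level of each of the 9 genes in CPM (log axis) in 5 classes of cells of the Beclin1 +/- library (left marker of each pair) and the WT library (right marker), with exact Poisson 95% intervals that cover counting error only. Corneal basal cells exceed wing cells for every gene, and F3 and Plaur are highest in limbal cells, at 640.4 CPM and 190.0 CPM in Beclin1 +/- and 919.0 CPM and 238.2 CPM in WT.

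Against wing cells all 9 were at least 2-fold higher in corneal basal cells of both libraries, where 5.76% of 4165 genes in Beclin1 +/- and 5.29% of 4314 genes in WT were. Pthlh and F3 lay close to that limit in Beclin1 +/-, at 2.05-fold and 2.07-fold. The count there was 8 of 9 without doublet removal, with the mean over cells and with the cells of both limbal and corneal markers included, where Pthlh had log2 ratios of 0.997, 0.95 and 0.96, and also under stricter keratin limits, where F3 had 0.93. Against stromal cells 7 of 9 in each library were at least 2-fold higher, where 17.3% of genes in Beclin1 +/- and 17.5% in WT were, and Fscn1 and F3 were the exceptions, at 1.56-fold and 1.97-fold in Beclin1 +/- and 1.57-fold and 1.59-fold in WT. Against limbal cells 2 of 9 in Beclin1 +/-, Nppb and Pthlh, and 3 of 9 in WT, with Snai2 added, were at least 2-fold higher, where 3.72% and 3.75% of genes were. None was 2-fold lower than in limbal cells, where 5.36% of genes in Beclin1 +/- and 6.06% in WT were, although Plaur stood at 0.568-fold and 0.545-fold and F3 at 0.612-fold and 0.528-fold of the limbal level in those libraries. Against the cells with both limbal and corneal markers 1 of 9 in Beclin1 +/- (Pthlh) and 2 of 9 in WT (Pthlh and Fscn1) were 2-fold higher, where 1.14% and 2.34% of genes were. Since the genes were picked on these contrasts, the background shares stand beside the counts and nothing is read from them. Plau is counted although its mean stayed under the 20 CPM that the background genes had to reach.

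Free RNA in droplets can put UMIs into cells that do not express a gene, and stromal cells give a level to compare with. Their median depth was 8160.5 UMIs in Beclin1 +/- and 11643 UMIs in WT, against 12053 UMIs and 17753 UMIs in corneal basal cells. Keratin transcripts that stromal cells should lack were at 5.49% of their corneal basal level in Beclin1 +/- and 3.36% in WT for Krt12, and at 3.64% and 2.16% for Krt14. Nppb, at 2.24% in Beclin1 +/- and 1.69% in WT, and Fermt1, at 2.15% and 1.86%, were below both keratin shares of their library. These shares depend on which doublets were removed: without that step the log2 ratio of corneal basal over stromal cells was 4.42 in Beclin1 +/- and 4.90 in WT for Nppb, against 5.44 and 5.81 with it, and 4.68 and 5.07 for Fermt1, against 5.54 and 5.74. Pthlh, at 4.60% in Beclin1 +/- and 2.61% in WT, lay between the Krt14 and Krt12 shares of its library. Procr, at 22.8% in Beclin1 +/- and 18.3% in WT, F3, at 50.9% and 62.9%, and Fscn1, at 64.2% and 63.5%, were far above them. After thinning, 73.3% of Beclin1 +/- and 79.1% of WT corneal basal cells had an F3 UMI, against 43.0% and 50.6% of stromal cells. For Nppb the thinned shares were 20.1% of Beclin1 +/- and 21.3% of WT corneal basal cells, against 0.681% and 0.907% of stromal cells.

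Within the corneal lineage the genes followed Krt14, the basal keratin, in steps of different shape. Cells with Krt12 of at least 8000 CPM were divided by Krt14 into 5 bands, from under 500 CPM to at least 10000 CPM, so the low bands hold wing-like cells that the corneal basal class leaves out. Fermt1 climbed over the bands in Beclin1 +/-, with 40.9, 151.1, 347.3, 450.4 and 442.8 CPM, and in WT, with 53.6, 134.4, 304.0, 495.4 and 458.9 CPM. Procr climbed further in WT, with 10.6, 36.5, 126.4, 215.6 and 236.8 CPM, than in Beclin1 +/-, with 13.7, 44.3, 126.7, 161.3 and 159.8 CPM, and the libraries were level in the middle band. F3 had the same gradual course in Beclin1 +/-, with 135.6, 214.8, 352.6, 445.9 and 469.4 CPM, and in WT, with 145.8, 235.0, 381.0, 567.5 and 655.7 CPM. Nppb peaked in the band of 5000 to 10000 CPM, at 78.2 CPM in Beclin1 +/-, and was at 54.9 CPM in the highest band there. The WT cells had the same peak band and 56.3 CPM in the highest band. Pthlh was at 107.9 CPM in Beclin1 +/- and 98.0 CPM in WT in the lowest band. Over the upper 3 bands it was highest in the first of them in Beclin1 +/-, with 378.2, 323.8 and 342.9 CPM. In WT it peaked in the middle of them, with 388.1, 506.7 and 360.1 CPM. Plau went through the widest relative range, 0.428 CPM in the lowest band and 11.7 CPM in the highest in Beclin1 +/-, and 0.390 CPM and 11.4 CPM in WT. Krt14 also chose the class, so these gradients describe the genes along the rule's own axis.

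**Figure D2:**
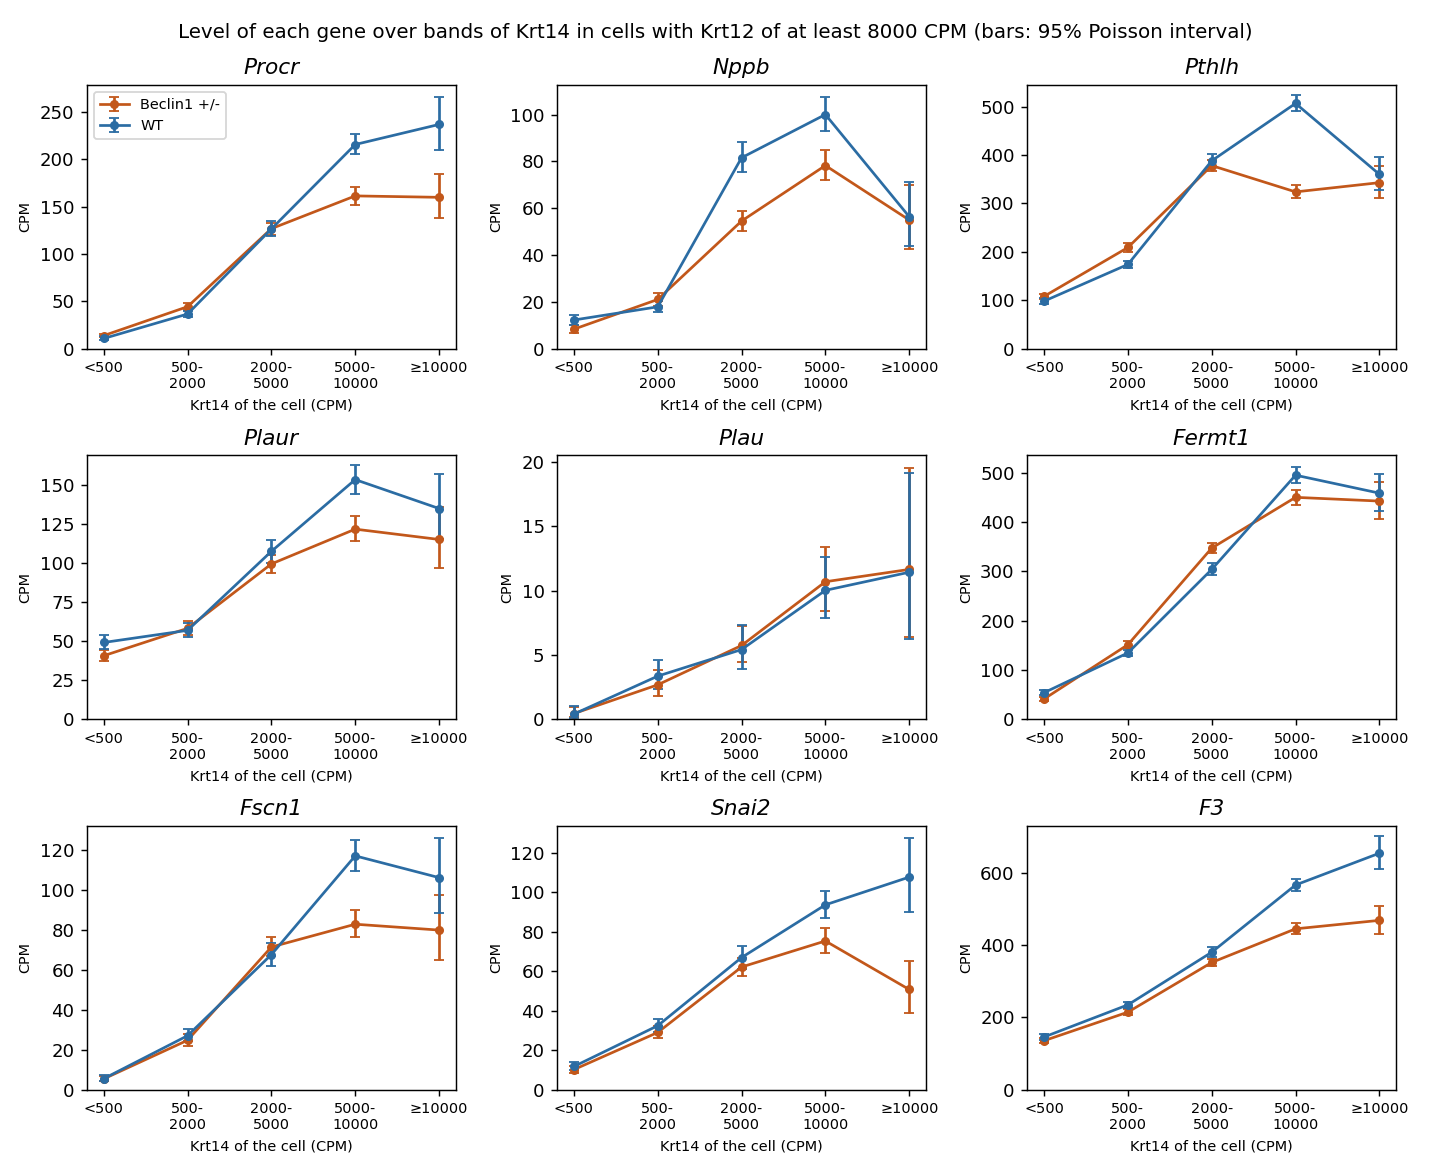
Level of each gene in CPM over 5 bands of Krt14 in cells with at least 8000 CPM of Krt12, for the Beclin1 +/- and the WT library, with exact Poisson 95% intervals. Levels are lowest under 500 CPM of Krt14 for all 9 genes in both libraries, and Nppb is lower at 10000 CPM or more, with 54.9 CPM in Beclin1 +/- and 56.3 CPM in WT, than in the band before it.

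Corneal basal cells that carried transcripts of the matrix-degrading proteases Mmp10 or Mmp13 were richer in nearly all of the genes. A thinned UMI of either protease gene was found in 809 cells (56.1%) of Beclin1 +/- and 452 cells (55.9%) of WT. Plau differed most in Beclin1 +/-, with 11.6 CPM in cells with the proteases and 2.90 CPM in cells without, and had 10.9 CPM and 4.26 CPM in WT. Nppb had 89.8 CPM with and 27.9 CPM without in Beclin1 +/-, and 121.1 CPM and 47.0 CPM in WT. Fermt1 had 533.7 CPM with and 201.7 CPM without in Beclin1 +/-, and 544.2 CPM and 225.0 CPM in WT. Procr, Plaur and Snai2 were also higher with the proteases, with log2 ratios of 1.05, 1.27 and 0.91 in Beclin1 +/- and 1.12, 1.07 and 0.91 in WT. Pthlh stood apart, level in Beclin1 +/- at 357.7 CPM with and 356.7 CPM without, and 538.8 CPM against 315.9 CPM in WT. In all, 8 of 9 genes in Beclin1 +/- and 9 of 9 in WT were 1.5-fold higher in the cells with the proteases, where 4.43% and 4.42% of all genes were. This grouping was chosen with values known, and the cells with the proteases were the deeper ones, with median depths of 12566 UMIs against 11529.5 UMIs in Beclin1 +/- and 18418 UMIs against 16301 UMIs in WT.

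Cycling cells had less Procr. Cells with 3 or more thinned UMIs of cell cycle genes were 18.8% of corneal basal cells in Beclin1 +/- and 18.3% in WT. Procr had 83.3 CPM in cycling and 157.7 CPM in other cells of Beclin1 +/-, and 104.6 CPM and 195.4 CPM in WT, a log2 ratio of -0.92 and -0.90. It was past 1.5-fold lower in both libraries, where 2.75% of genes in Beclin1 +/- and 1.98% in WT were, and Nppb (-0.90) and Pthlh (-0.70) passed that limit in WT, with -0.34 and -0.29 in Beclin1 +/-. Whether these ratios differ between the libraries was not tested. Plaur had log2 ratios of -0.24 in Beclin1 +/- and -0.41 in WT. Those of Fermt1, Fscn1, Snai2, Plau and F3 lay between -0.28 and 0.17 in both libraries.

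Cells rich in a chosen set of immediate early transcripts, which tissue digestion can raise, had lower levels of nearly all of the 9 genes. Cells were split at their library's median of the summed thinned UMIs of Fos, Fosb, Jun, Junb, Egr1 and Ier2, a grouping chosen with values known, which put 627 of 1441 Beclin1 +/- cells and 383 of 809 WT cells in the upper part. Plaur had 88.7 CPM in the upper and 122.0 CPM in the lower cells of Beclin1 +/-, and 86.3 CPM and 168.5 CPM in WT. Procr had 134.4 CPM and 145.2 CPM in the upper and lower cells of Beclin1 +/-, and 125.9 CPM and 217.8 CPM in WT. All 9 log2 ratios of upper over lower cells were below 0 in both libraries, from -0.49 (Plau) to -0.05 (Fscn1) in Beclin1 +/- and from -1.41 (Plau) to -0.17 (Pthlh) in WT. The share of all genes below 0 in this split is not given, but their median was 0.05 in Beclin1 +/- and 0.07 in WT. Of all genes, 28.7% had a lower ratio than Fscn1 in Beclin1 +/- and 16.2% a lower one than Pthlh in WT. None of the 9 was past 1.5-fold lower in Beclin1 +/-, where 0.824% of all genes were, and 4 were in WT (Procr, Nppb, Plaur and Plau), where 2.74% were. Other immediate early genes ran the other way. With the number of the 9 detected, Fosl1 had a Pearson r of 0.32 in Beclin1 +/- and 0.38 in WT. Klf6 had 0.20 and 0.31, and Ier3 0.21 and 0.22, whereas each gene used for the split had an r below 0 in both libraries.

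Most corneal basal cells carried several of the genes at once. In cells thinned to 5000 UMIs, 3 or more of the 9 were detected in 992 cells, 68.8% (exact binomial 95% interval 66.4 to 71.2), of Beclin1 +/- and in 597 cells, 73.8% (70.6 to 76.8), of WT. Limbal cells came close, with 66.8% in Beclin1 +/- and 64.3% in WT, whereas wing cells had 20.7% and 20.8% and stromal cells 4.39% and 3.27%. The mean number detected per corneal basal cell was 3.35 in Beclin1 +/- and 3.72 in WT. Independent detection at the same shares would have put 3 or more genes in 73.7% of Beclin1 +/- and 82.1% of WT corneal basal cells, above the shares seen. Cells with none or many were above independence: 0 genes were seen in 2.36% of Beclin1 +/- cells where independence gives 0.857%, and in 1.48% of WT cells where it gives 0.392%. Detection of 5 or more was seen in 23.9% of Beclin1 +/- cells, against 18.9% under independence, and in 33.6% of WT cells, against 27.6%.

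**Figure D3:**
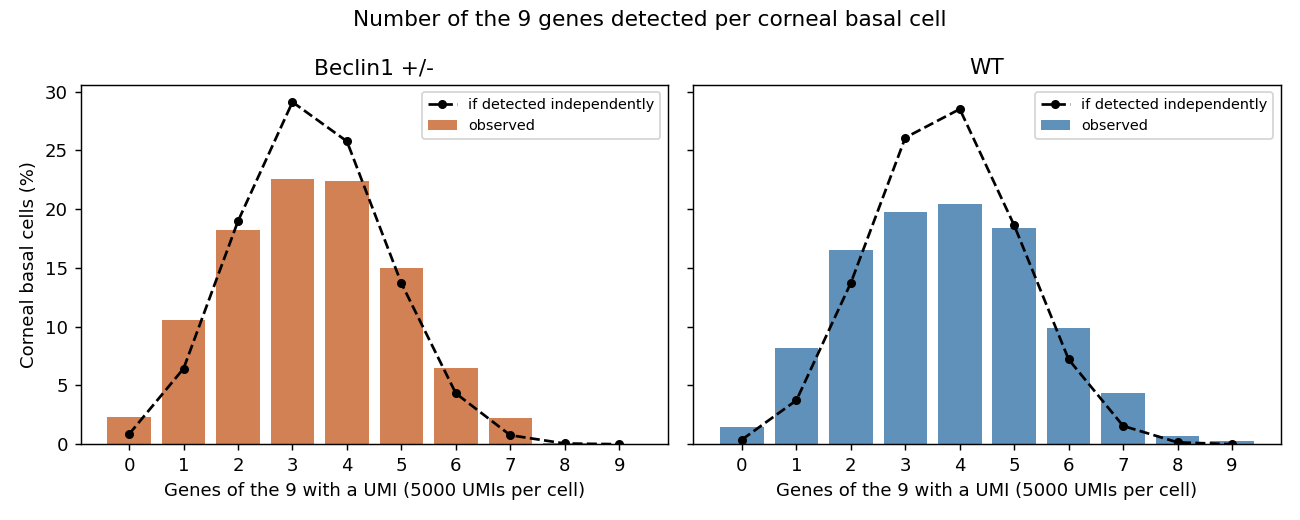
Share of corneal basal cells (percent) by the number of the 9 genes detected per cell thinned to 5000 UMIs, in Beclin1 +/- (left, 1441 cells) and WT (right, 809 cells); bars are observed shares and the dashed line the shares under independent detection. Cells with 0 genes are more frequent than the line in both, 2.36% against 0.857% in Beclin1 +/- and 1.48% against 0.392% in WT.

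Pairs of the genes were found in the same cell somewhat more often than independent detection gives, with Pthlh as the exception. The ratio of cells with both genes to the number expected from their shares had a median of 1.12 over 36 pairs in Beclin1 +/- and 1.13 in WT. All 28 pairs without Pthlh were above 1 in both libraries, with a median of 1.15 in Beclin1 +/- and 1.18 in WT. Nppb and Plaur met in 151 Beclin1 +/- cells where 102.6 were expected, a ratio of 1.47, and in 93 WT cells where 66.1 were expected, a ratio of 1.41. Procr and Nppb met in 168 Beclin1 +/- cells (expected 113.1) and 104 WT cells (expected 82.9). The receptor Plaur and its ligand Plau met in 24 Beclin1 +/- cells (expected 16.99) and 28 WT cells (expected 13.8), counts too small to order the pair among the others. Pthlh was below 1 in both libraries with F3, Nppb, Fermt1, Plaur and Plau, for example in 380 Beclin1 +/- cells with Fermt1 where 425.6 were expected and 253 WT cells where 273.3 were. With Snai2, Pthlh was above 1, at 1.13 in Beclin1 +/- and 1.22 in WT.

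Joint detection was also taken within the cells with and without the proteases. Among corneal basal cells with Mmp10 or Mmp13 the median ratio of the pairs without Pthlh was 1.04 in Beclin1 +/- and 1.08 in WT over 28 pairs each. Among the cells without it was 1.22 over 22 pairs in Beclin1 +/- and 1.12 over 23 pairs in WT, since pairs with under 5 cells expected were left out. The sets of pairs thus differ, and the difference was not tested. Cells with the proteases carried 3.87 of the 9 genes on average in Beclin1 +/- and 4.33 in WT, and cells without carried 2.69 and 2.95. Over the pairs with at least 5 cells expected, limbal cells had a median ratio of 1.01 in Beclin1 +/- and 1.05 in WT (23 pairs each), and wing cells 1.17 (24 pairs) and 1.11 (22 pairs). The cells behind these ratios come from 1 animal per library, so they are not replicates.

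**Figure D4:**
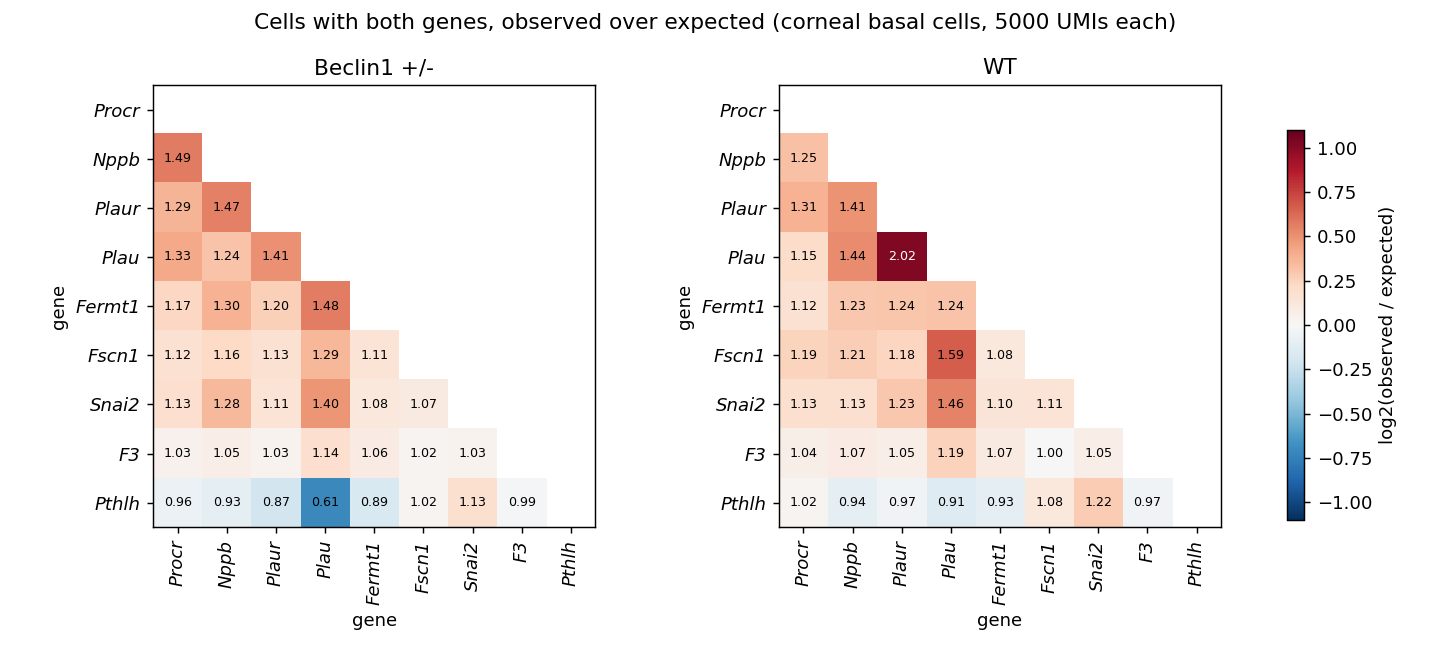
Observed over expected number of corneal basal cells with both genes of a pair (log2 colour scale), for Beclin1 +/- (left) and WT (right). The number in each square is the ratio. The squares of the Pthlh row with F3, Nppb, Fermt1, Plaur and Plau are below a ratio of 1 in both libraries, and all 28 pairs without Pthlh are above it.

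Cells with more of the genes differed in named ways from cells with few. Corneal basal cells with 5 or more detected (344 cells in Beclin1 +/-, 272 in WT) had 691.3 CPM of Mmp10 in Beclin1 +/- and 733.8 CPM in WT, against 125.8 CPM and 69.2 CPM in cells with 0 or 1 (186 and 78 cells). Fosl1, which encodes an AP-1 subunit, was at 547.7 CPM in Beclin1 +/- and 629.4 CPM in WT cells with 5 or more, against 221.5 CPM and 184.6 CPM. Krt12 ran the other way, with 16560 CPM in Beclin1 +/- and 18980 CPM in WT cells with 5 or more, against 24600 CPM and 29230 CPM in cells with 0 or 1. Keratins of activated epithelium did not follow: Krt6a was at 1324 CPM in Beclin1 +/- and 1199 CPM in WT cells with 5 or more, against 2874 CPM and 1305 CPM. Median depth before thinning was 11826 UMIs in Beclin1 +/- and 18371 UMIs in WT cells with 5 or more, against 12350 UMIs and 15673.5 UMIs in cells with 0 or 1. The stromal marker Dcn was at 93.6 CPM in Beclin1 +/- and 67.7 CPM in WT cells with 5 or more, against 87.1 CPM and 66.7 CPM.

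Over all corneal basal cells, the genes whose thinned counts most resembled the number of the 9 detected were led by Pxdc1, with a Pearson r of 0.45 over 1441 Beclin1 +/- cells and 0.53 over 809 WT cells. Among the genes that followed were Anxa1, encoding the membrane-binding protein annexin A1 (0.39 in Beclin1 +/- and 0.49 in WT), Mmp10 (0.38 and 0.41), Ifi202b (0.38 and 0.45) and Rap2b, a small GTPase (0.37 and 0.42). The first 12 also held Sfn (the 14-3-3 protein sigma), Cdkn1a (the cell cycle inhibitor p21), Plet1, Odc1 (the first enzyme of polyamine synthesis) and Phlda1. The central 90% of 3987 genes ran from -0.11 to 0.15 in Beclin1 +/- and from -0.13 to 0.15 in WT. These cells share a library, a depth and keratin levels, so the values describe likeness and carry no test. The same number had an r of -0.04 with depth before thinning in Beclin1 +/- and 0.02 in WT, of -0.29 with Krt12 in each library, and of -0.12 and -0.33 with the immediate early UMIs. Krt6a, Krt16 and Krt17, keratins that mark migrating epidermis, had r of -0.05, -0.05 and -0.07 in Beclin1 +/- and 0.12, 0.03 and -0.05 in WT, so the name wound-edge is not borne out by these keratins in the cells that carry most of the 9 genes.

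Gene by gene, the likeness split the 9 into groups. Fermt1 had Pxdc1 among its closest genes, at 0.39 in Beclin1 +/- and 0.37 in WT, and F3 was most like Fermt1, at 0.30 and 0.36. By the lower r of both libraries Procr and Plaur were most like Anxa1, at 0.30 and 0.31 in Beclin1 +/- and 0.32 and 0.36 in WT. In WT alone Pxdc1 was ahead of Anxa1 for both, at 0.34 for Procr and 0.37 for Plaur. Nppb was most like Phlda1, at 0.25 in Beclin1 +/- and 0.28 in WT. Pthlh had other partners, Kctd11 at 0.31 in Beclin1 +/- and 0.26 in WT and Fam162a at 0.25 and 0.21. For Plau, Fscn1 and Snai2 the closest genes, Eva1a, Pxdc1 and Urah, stayed at 0.21 or less in both libraries, which in sparse counts is no finding. Of the list of migrating keratinocyte genes, Lama3 and Lamb3, which encode laminin chains, had r of 0.32 and 0.26 with the number detected in Beclin1 +/- and 0.34 each in WT.

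That list of 28 migrating keratinocyte genes went in both directions. Of its 18 genes that averaged 20 CPM, 7 in Beclin1 +/- and 6 in WT were 2-fold higher in corneal basal than wing cells, where 5.76% and 5.29% of all genes were, and 2 in each were 2-fold lower, where 8.5% and 8.79% were. Against limbal cells 4 of 23 in Beclin1 +/- and 4 of 22 in WT were 2-fold higher, where 3.72% and 3.75% of all genes were, and 6 in each were 2-fold lower, where 5.36% and 6.06% were. Krt6a, at 1981 CPM in Beclin1 +/- and 1518 CPM in WT corneal basal cells, was higher in wing cells, at 5368 CPM and 4842 CPM. Hbegf, a growth factor of the EGF family, had 704.4 CPM in Beclin1 +/- and 840.6 CPM in WT corneal basal cells, and Itga5, the fibronectin receptor chain, had 7.74 CPM and 3.93 CPM. Itga5 was chosen after values had been seen.

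Between the libraries, all 9 genes were a little lower in the corneal basal cells of Beclin1 +/- than of WT. The log2 ratio of Beclin1 +/- over WT was largest in size for Nppb, at -0.49 (95% counting interval -0.60 to -0.38). It was -0.31 for Procr (-0.39 to -0.24), Snai2 (-0.42 to -0.20) and F3 (-0.35 to -0.26), and -0.30 for Pthlh (-0.34 to -0.25). Fscn1 was at -0.29 (-0.39 to -0.19) and Plaur at -0.27 (-0.35 to -0.18). For Fermt1 (-0.05) and Plau (-0.03) the intervals reached 0. Below 0 were also 53.8% of all 4137 genes, whose median was -0.01 and whose central 90% ran from -0.29 to 0.26. None of the 9 was 1.5-fold lower or higher, where 0.435% and 0.991% of genes were, and 1.09% of genes had a lower ratio than Nppb. With the counts scaled by TMM, 8 of 9 were below 0 (Plau at 0.01), where 43.9% of genes were.

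The mix of Krt14 levels within the class and the immediate early transcripts also differed between the libraries. Cells of the lowest band, 2000 to 5000 CPM of Krt14, were 55.2% of corneal basal cells in Beclin1 +/- and 42.5% in WT. Within that band 5 of 9 genes were below 0, where 56.8% of genes were, Procr was at 0.00, Plau and Fscn1 at 0.08 each and Fermt1 at 0.19 (0.12 to 0.27), and Nppb was still at -0.58 (-0.74 to -0.42). Between 5000 and 10000 CPM 8 of 9 were below 0, where 50.7% of genes were, with Pthlh alone past 1.5-fold lower, as were 0.545% of genes, at -0.65 (-0.72 to -0.57) and Fscn1 at -0.50 (-0.65 to -0.35). At 10000 CPM or more, from 101 Beclin1 +/- cells and 82 WT cells, Snai2 alone was past 1.5-fold lower, as were 7.98% of genes, at -1.08 (-1.55 to -0.64), and Nppb at -0.04, but there the central 90% of all genes ran from -0.68 to 0.75. The immediate early list summed to 7543 CPM in Beclin1 +/- and 9328 CPM in WT corneal basal cells. Of its 20 genes that averaged 20 CPM, 17 were below 0, where 53.8% of all genes were. Junb, for example, stood at 730.8 CPM in Beclin1 +/- and 1078 CPM in WT. Of 5 YAP and TEAD target genes that averaged 20 CPM, 4 were below 0, beside the same 53.8% of all genes. Among them was Cyr61, at 381.6 CPM in Beclin1 +/- and 581.6 CPM in WT. The part of keratin mix, immediate early level and depth in the lower levels of Beclin1 +/- was not tested. Among cells of at least 10000 UMIs in both libraries 8 of 9 genes were below 0, against 9 of 9 at any depth, where 53.8% of all genes were.

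Outside the corneal basal class the library ratios were not uniform. F3 and Plaur had ratios below 0 in all 5 classes. F3 was at -0.52 in limbal and -0.61 in stromal cells, and Plaur at -0.33 and -0.54. In wing cells F3 was at -0.18 (-0.25 to -0.11) and Plaur at -0.16 (-0.30 to -0.01). There 61.28% of all genes were below 0, and TMM put the common shift at -0.13. Below 0 were 52.55% of genes in limbal cells, 51.35% in stromal cells and 47.34% in the cells with both limbal and corneal markers. Pthlh had the opposite sign in limbal cells, at 0.97 (0.67 to 1.27), with 86.8 CPM in Beclin1 +/- and 44.4 CPM in WT. The share of limbal cells with a thinned Pthlh UMI did not differ in that way, at 18.3% in Beclin1 +/- and 18.9% in WT. The highest Beclin1 +/- limbal cell held 33 of the 260 UMIs, and the interval does not cover such unevenness between cells. In the cells with both limbal and corneal markers Pthlh was at -0.67 (-1.01 to -0.32), with 105.7 CPM in Beclin1 +/- and 167.9 CPM in WT, the sign of the corneal basal cells. Procr was near 0 in limbal (0.08), wing (0.06) and stromal cells (0.01), and at -0.54 (-0.83 to -0.25) in the cells with both limbal and corneal markers. The share of those cells with a thinned Procr UMI ran the other way, 49.0% in Beclin1 +/- and 37.8% in WT. In WT 1 of the 45 cells held 31 of the 171 UMIs.

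**Figure D5:**
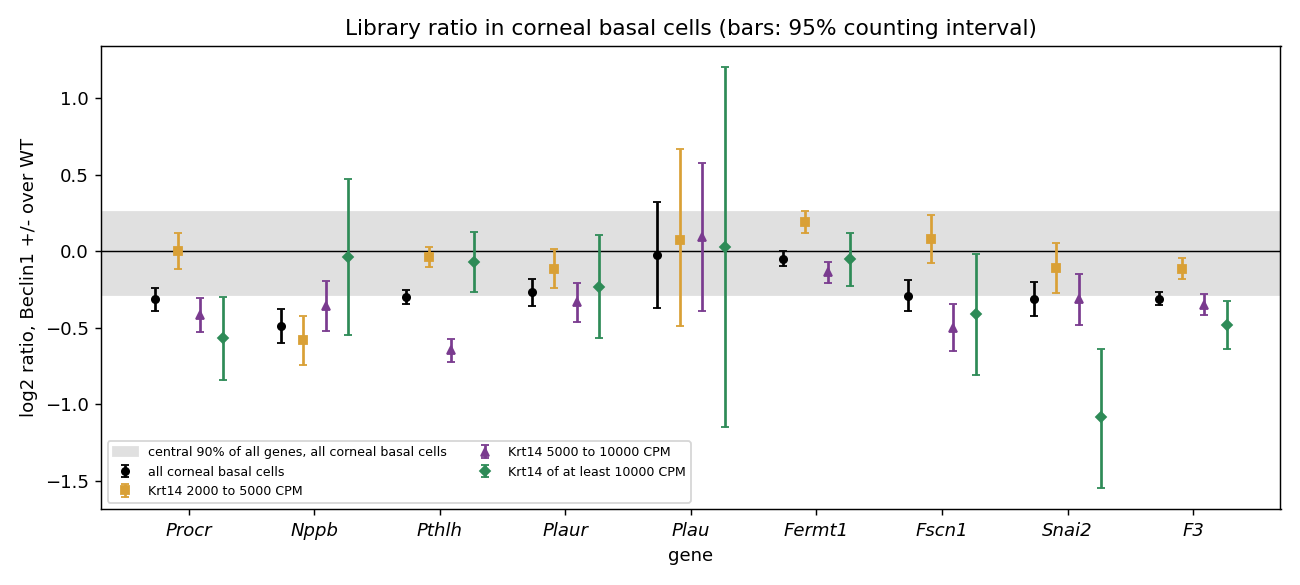
Log2 ratio of Beclin1 +/- over WT for each gene in all corneal basal cells and in 3 bands of Krt14, with exact 95% counting intervals; the grey band is the central 90% of all genes in all corneal basal cells, -0.29 to 0.26. Nppb is lowest over all cells at -0.49, and Procr is at 0.00 in the band of 2000 to 5000 CPM of Krt14.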

How the data were processed

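Each library was deposited as 1 matrix of UMI counts, whole and not normalized, by gene and barcode. Per the submitters' processing notes, Cell Ranger 2.1.1 and the mm10 build were used. For cell calling and the counted annotation, the method is not given in the sources used. Both libraries were 3′ UMI counts of 1 female mouse each, grouped by the genotype in the labels.

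A minimum of 500 genes and a ceiling of 20% mitochondrial UMIs removed no barcode. Scrublet scores (scanpy 1.11.5) removed the highest-ranked barcodes, at a rate set by barcode number, 213 in Beclin1 +/- and 51 in WT, leaving 4942 and 2462 cells. The deposited counts were summed per class and library and scaled to CPM by the UMIs of that class. Classes followed the marker limits in the text. Cells over the Dcn limit that also met an epithelial limit were set aside, 11 in Beclin1 +/- and 6 in WT.

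Ratios are log2 with 0.5 added to each count. Intervals are exact Poisson (levels), exact binomial (shares) and exact conditional (ratios) 95% intervals, and cover counting error only. Background shares are over genes that average 20 CPM or more in the groups compared. Classes were compared at 2-fold and libraries at 1.5-fold. For detection per cell, each cell was thinned at random to 5000 UMIs, and no cell was shallower. The ratio scripts were tested on simulated counts.

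The genes, lists and limits were chosen with earlier results of these data known. Every one of the 9 genes is named. From each other list the genes of highest CPM in corneal basal cells were taken, and likeness names the first 12 genes for the number detected and the first 3 per gene, by the lower Pearson r of both libraries. Some genes that this rule names are not reported here. Genes named outside this rule were chosen after their values were seen. Alternatives covered doublets, stricter limits (Krt14 of 4000 and Krt12 of 16000 CPM), a floor of 10000 UMIs, cycling cells, the mean over cells, TMM scaling, a background of 100 CPM, limbal cells with Krt12, and thinning. Krt14 bands and mast cell UMIs were added after seeing the data. Gene positions came from GENCODE on GRCm38 by gene ID and promoter windows from RefSeq. The scripts ran under Python 3.11.15 with pandas 2.3.3, numpy 2.4.6, scipy 1.17.1 and matplotlib 3.10.9.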

Additional observations from a re-analysis of the deposited data

Results flagged for a closer look

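The library ratio of Pthlh changed sign between classes of cells. The log2 ratio of Beclin1 +/- over WT was -0.30 in corneal basal cells, 0.97 in limbal cells, -0.67 in the cells with both limbal and corneal markers, 0.20 in wing cells and 0.51 in stromal cells, and no counting interval of these reached 0. In stromal cells the level was low, 16.4 CPM in Beclin1 +/- and 11.5 CPM in WT, and within the range of the keratins there. These intervals do not cover unevenness between cells. In limbal cells a thinned Pthlh UMI was found in 18.3% of Beclin1 +/- and 18.9% of WT cells, so the higher Beclin1 +/- level there rests on few cells. The difference between the classes was not tested, since each genotype had 1 library.

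Fscn1 was lower in Beclin1 +/- corneal basal cells, at -0.29, and higher in Beclin1 +/- cells with both limbal and corneal markers, at 0.72 (0.09 to 1.42). The levels in those cells were 57.7 CPM in Beclin1 +/- (102 cells) and 34.6 CPM in WT (45 cells), and the difference between the classes was not tested.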

How the results depend on the processing

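Of 122 values that answer a comparison, recomputed under the alternatives, 7 moved, by over 1.5 times for a count of genes or past the counting interval for a share or ratio. Within that tolerance 13 of 90 counts of the 9 genes still changed, by 1 each. Leaving out cycling cells put the median co-detection ratio in Beclin1 +/- at 1.159. Without thinning the ratio in WT was 1.069, and cells with 3 or more of the genes made up 89.52% of Beclin1 +/- and 94.19% of WT corneal basal cells, where independence gives 97.2% and 99.6%. In the Krt14 band of 2000 to 5000 CPM, added after seeing the data, 5 of 9 genes were below 0 between the libraries, and Procr (0.003) and Fscn1 (0.078) took the other sign, with intervals that covered 0, as did Plau (0.075) and Fermt1 (0.192), whose interval of 0.12 to 0.27 left out 0. In the bands of 5000 to 10000 CPM and of at least 10000 CPM 1 gene each passed 1.5-fold lower, Pthlh and Snai2, where 0.545% and 7.98% of all genes did. For these values and signs the cause was not tested. Of 594 values of single genes 12 took the other sign, 9 of Plau and 1 each of Procr, Fscn1 and Fermt1, and in 10 of the 12 the interval of the reported value covered 0.

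No paired analysis was possible because each genotype had 1 library. That also leaves out any spread between animals. TMM put the common shift of the log2 ratios of corneal basal over stromal cells at -0.24 in Beclin1 +/- and -0.28 in WT, over limbal cells at -0.11 and -0.10, and over wing cells at 0.03 and -0.12. With this shift taken off, F3 passed 2-fold over stromal cells in Beclin1 +/- (1.22). Plau, with 160 UMIs in Beclin1 +/- and 129 UMIs in WT corneal basal cells, limits every ratio drawn from it.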
